A study of Sus scrofa with 22 samples.

Results

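The proteasome genes described here were all rows of the authors' deposited group table whose name starts with PSMA, PSMB, PSMC, PSMD, PSME, PSMF or PSMG followed by a number. The rule found 44 of the 25749 rows, and all 44 were detected. By their known roles, 42 are subunits, activators, inhibitors or assembly chaperones of the proteasome: 7 alpha-ring subunits (PSMA1 to PSMA7), the germ-cell alpha subunit PSMA8, 5 constitutive beta subunits (PSMB1, PSMB2, PSMB3, PSMB4 and PSMB7), 3 inducible beta subunits (PSMB8, PSMB9 and PSMB10), 6 ATPases (PSMC1 to PSMC6), 11 non-ATPase subunits of the regulatory particle, 2 chaperones of the regulatory particle (PSMD5 and PSMD10), 2 chaperones of the core (PSMG3 and PSMG4), 4 activators (PSME1 to PSME4) and 1 inhibitor (PSMF1). The other 2, PSMC3IP and PSME3IP1, carry the name of a partner and are not proteasome subunits. PSMB5, PSMB6, PSMG1 and PSMG2 were not analysed here. In the RefSeq annotation of Sscrofa11.1 the members with a position lie on 13 chromosomes, 8 of them on chromosome 7.

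The proteasome is the protease that degrades proteins tagged with ubiquitin. Its barrel-shaped core has outer rings of alpha subunits, which form the gate, and inner rings of beta subunits, some of which cut the protein chain. The regulatory particle caps the barrel, with a ring of ATPases that unfolds the substrate and non-ATPase subunits that bind and remove ubiquitin. In cells exposed to interferon gamma, and constitutively in many immune cells, PSMB8, PSMB9 and PSMB10 replace their constitutive counterparts and PSME1 and PSME2 form an alternative cap, which changes the peptides made for antigen presentation. In mouse testis, PSMA8 replaces PSMA7 in a germ-cell form of the core. In mouse embryos, proteasome activity is needed to clear maternal proteins after fertilization.

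The study sequenced single cells of pig embryos from E0 to E14 (embryonic day) and of pgEpiSC, which are stem cell lines taken from the pre-gastrulation epiblast of E10, with a modified Smart-seq2 protocol. The labels give no breed, genotype or treatment for any group. They do not say what "low" and "high" mean for the 2 pgEpiSC libraries or whether these are separate lines. The authors' table holds 37 embryonic groups and 2 pgEpiSC groups: Oocyte, Zygote, 2C, 4C, 8C (the cleavage stages), Morula_E4, preICM_E5 and preTE_E5 (precursors of inner cell mass and of trophectoderm, the outer layer that forms the placenta), ICM_E6, TE on each day from E6 to E14 except E11, Hypoblast (the extra-embryonic endoderm) and Epiblast (the layer that forms the embryo) from E7 to E10, Ectoderm and Mesdoderm (the authors' spelling of mesoderm) from E11 to E14, Endoderm at E11 and E12, Defi_Endoderm (definitive endoderm) at E13 and E14, pgEpiSC_low and pgEpiSC_high.

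The deposited counts cover 1647 cells in 22 libraries, of which 1458 cells in 20 libraries (P1 to P20) came from embryos, 93 from pgEpiSC_low and 96 from pgEpiSC_high. Library totals ran between 7415760 and 39405309 counts, with medians of 274531 counts and 9120 detected genes per cell. All 96 cell barcodes were used in at least 2 libraries, so a cell is identified by its library and barcode together. The group of each cell was recovered from the deposited group means, which a weighted average of the right cells matches. Adding up the counts of all cells that share group and library gave 67 sums, and levels are given in CPM, counts per 1000000 counts of a sum or, where said to be pooled, of all cells of a group. The labels do not say which embryos the cells came from, so p-values measure only the spread between library sums, which may be technical. In such sums, fewer cells of a type and less RNA per cell cannot be told apart. A gene is called changed where edgeR's quasi-likelihood test on the sums gave a Benjamini-Hochberg adjusted p under 0.05 over all genes tested. The authors' group names were checked against marker genes. Summed CPM of the oocyte markers GDF9, BMP15 and ZP3 lay between 658 and 2549 up to the 8C stage, the trophectoderm list between 889 and 2935 in TE groups, the epiblast list between 531 and 724 in Epiblast groups and the hypoblast list between 287 and 757 in Hypoblast groups. The lists were not confined to these groups. The trophectoderm list was at 1535 CPM in Defi_Endoderm_E13 and 1115 in Endoderm_E12, the hypoblast list at 668 in preICM_E5, and the mesoderm list at 409 to 613 in TE_E12 to TE_E14, against 483 to 560 in the Mesdoderm groups. The definitive endoderm list was at 242 CPM in Defi_Endoderm_E13 and 32.6 in Defi_Endoderm_E14, against 272 in Hypoblast_E9.

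Proteasome transcripts made up the smallest share of counts in the oocyte and the cleaving embryo. Larger shares lay in the epiblast, its derivatives, the hypoblast of E7 and E8 and the stem cell lines. The pooled summed level of the 44 members was 5230.1 CPM in Oocyte, 5334 in Zygote, 4672 in 2C, 6045 in 4C and 5292 in 8C. It was 6901 CPM in Morula_E4, 8106 in preTE_E5 and 9963 in ICM_E6, and then between 10263 and 11116 CPM in Epiblast from E7 to E10. In Ectoderm it ran from 9929 CPM at E14 to 11948 at E13, in Mesdoderm from 8986 CPM at E14 to 11474 at E11, and it was 10669 CPM in pgEpiSC_low and 12034 in pgEpiSC_high. Hypoblast had 10575 CPM at E7, inside the Epiblast range, and 10182 at E8, just below it. Below every Epiblast and Ectoderm group lay Hypoblast at E9 and E10, with 8027 to 8883 CPM. Endoderm (8374 to 8669 CPM) and every TE group from E6 to E14 (6517 to 9243, TE_E9 left aside) lay below them too. Defi_Endoderm had 10535 CPM at E13 and 8169 at E14. The 2 cells of TE_E9 gave 4133 CPM, and that group enters no sum and no ordering.

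**Figure D1:**
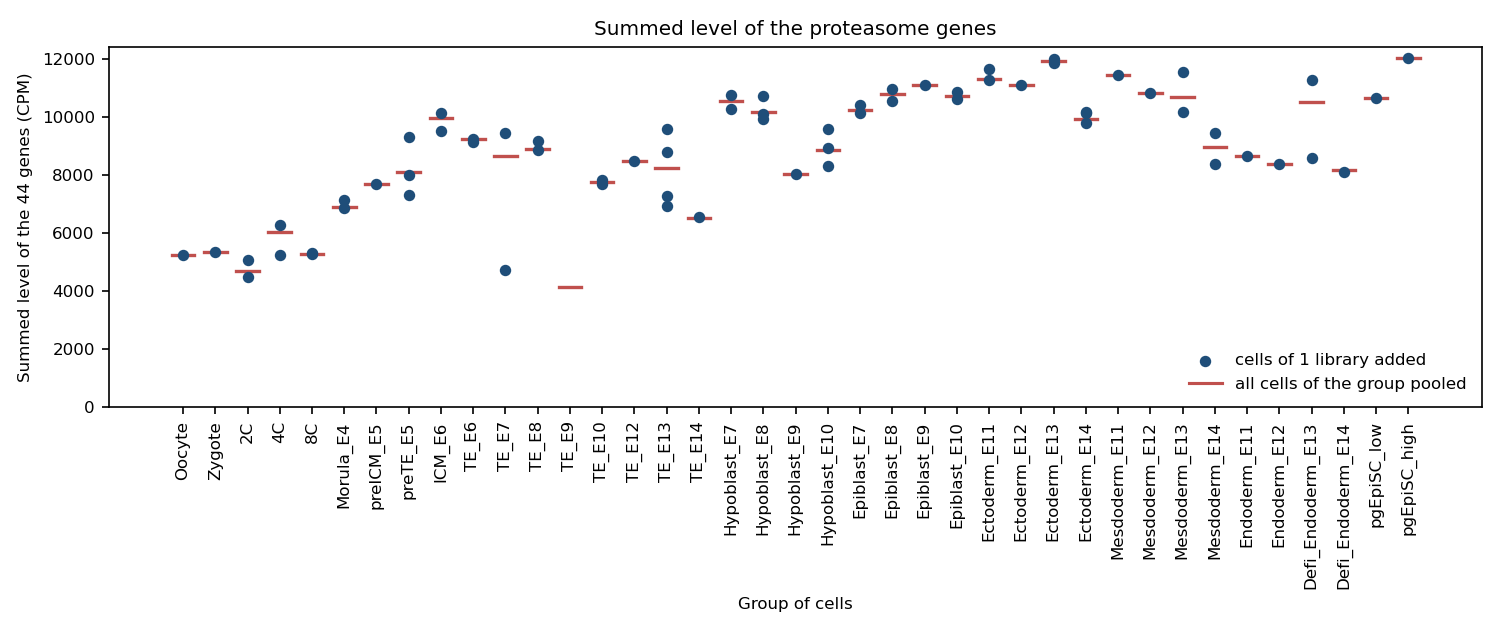
Summed level of the 44 proteasome genes (y axis, CPM) by group (x axis); points are library sums and red bars the pooled cells of a group, and TE_E9, with 2 cells, has no point. The groups up to 8C lie between 4672 and 6045 CPM pooled, the Epiblast groups between 10263 and 11116 CPM.

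Sums of 1 group lay close together at most stages and apart at others. The summed level was 6274 CPM in 4C of P1 and 5253 in 4C of P13, against 4491 in 2C of P1 and 5051 in 2C of P13. The 8C sums, from libraries P19 and P20, had 5298 and 5289.8 CPM, and Morula_E4 had 6850.5 in P1 and 7129 in P2. The 7 Epiblast sums spanned 10153 to 11116 CPM. The widest gap within a group was in TE_E7, where P8 had 9458 CPM and P9 had 4722. The P9 sum rests on 5 cells with a median of 5783 detected genes. For TE comparisons that use it, the calls of members are also given without P9.

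**Figure D2:**
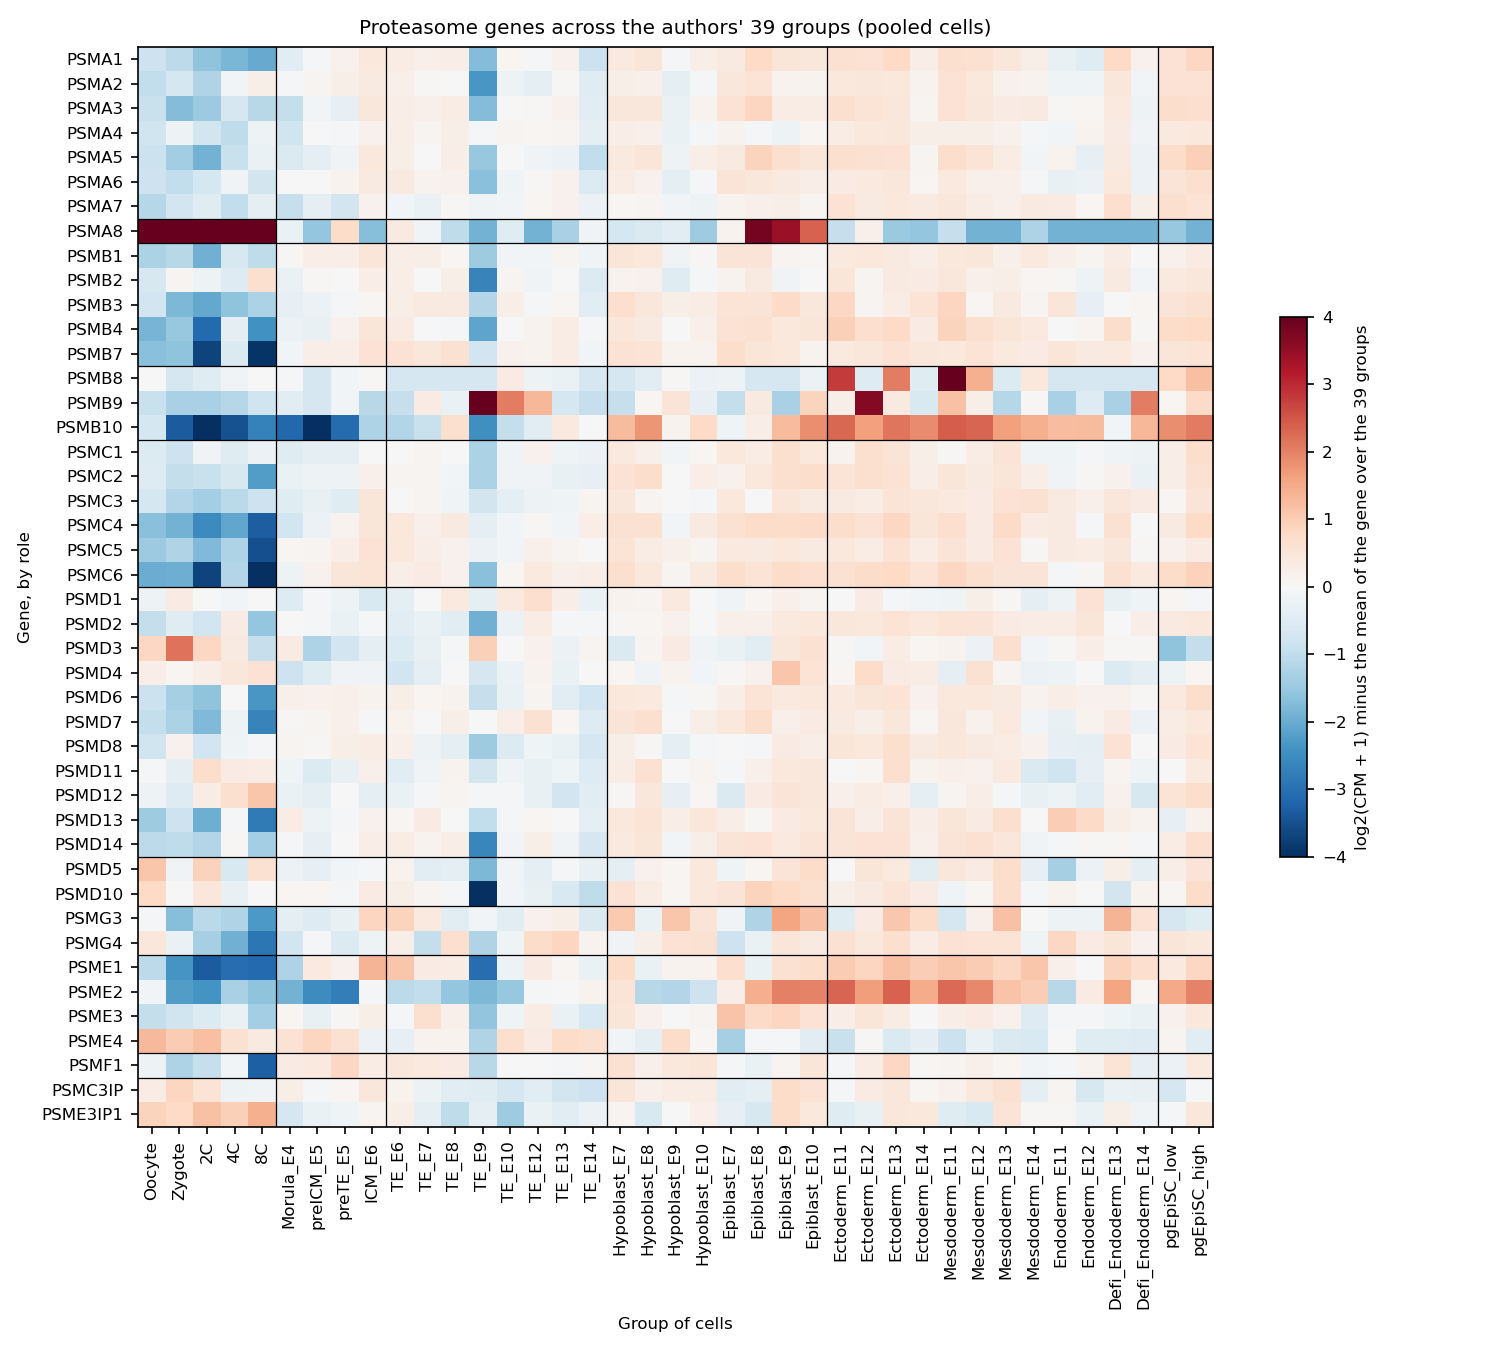
Level of each of the 44 proteasome genes (rows, by role) in each group (columns), as the difference in log2(CPM + 1) of the pooled cells from the mean of that gene over the 39 groups (red higher, blue lower). Most rows are low up to 8C and high in Epiblast, Ectoderm, Mesdoderm and pgEpiSC, and the rows of PSMA8, PSME4, PSMD3 and PSME3IP1 run the other way.

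Most members followed this course and a few ran against it. Over the 38 groups without TE_E9, 34 members had a higher mean in the 33 groups from Morula_E4 on than in the 5 groups up to 8C, and 10 had a lower one. A total of 32 members were at their lowest in one of the 5 early groups. At their highest, 29 were in an Epiblast, Ectoderm, Mesdoderm or pgEpiSC group and 9 in an early group. Another 5 were highest in a preTE, TE, Endoderm or Defi_Endoderm group, and none in Hypoblast. No share over all genes was computed for these counts, so they describe the members only. For 26 members the level across the 38 groups had a Pearson r above 0.7 with the sum of the other members (median r 0.77 over the members). Those points share libraries, and CPM within a group are shares of 1 total, so r is given only as a description.

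Of the 42 members at or above 10 CPM on average, 9 were higher in each of the 33 later groups than in any of the 5 early ones, where 8.37% of all genes at that level were. Another 2, PSMA8 and PSME3IP1, were lower in each later group, where 12.5% of all genes were. The 9 hold 5 of the 6 ATPases that power the regulatory particle, PSMC2, PSMC3, PSMC4, PSMC5 and PSMC6, and the beta subunits PSMB1, PSMB3, PSMB4 and PSMB7. PSMC6 averaged 37.1 CPM over the early groups and 242 over the later groups, PSMC4 35.9 and 222, and PSMC5 73.6 and 283. PSMB7, which carries the trypsin-like active site, averaged 93.9 CPM early and 425 later, and PSMB4, a structural beta subunit, 96.1 and 374. The pooled ATPase sum was 579 CPM in Oocyte, 470 in 2C, 576 in 4C and 379 in 8C, then 947 in Morula_E4 and 1820.4 in Ectoderm_E13. The alpha ring took another course, with 1234 CPM in Oocyte, 1437 in 4C, 1707 in 8C, 1656 in Morula_E4 and 3293 in Ectoderm_E13.

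PSMA8, PSME4, PSME3IP1 and PSMD3 were the 4 members whose level had a negative r with the sum of the others over the 38 groups (-0.60, -0.79, -0.39 and -0.37). PSMA8 averaged 96.3 CPM over the early groups and 4.36 over the later ones. PSME4, a large activator that caps the core without ATPases and in mouse is needed for normal sperm formation, averaged 99.6 CPM early and 51.1 later and was highest in Oocyte, at 129. PSMD3, a lid subunit of the regulatory particle, averaged 137 CPM early and 66.7 later and was highest in Zygote, at 316. PSME3IP1, a nuclear partner of the activator PSME3, averaged 167 CPM early and 75.2 later and was highest in 8C, at 216. PSMD12 and PSMB2 were also highest in 8C, at 376 and 557 CPM, and the scaffold subunit PSMD1 averaged 205 CPM over the 5 early groups and 209 over the 33 later ones.

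No step before 2C could be tested, since Oocyte and Zygote each have 1 sum, both from P1. Of the 38 members that reached 50 CPM in either group, 1 was more than 2-fold higher in Zygote than in Oocyte, where 6.15% of all genes at that level were, and 4 were more than 2-fold lower, where 25.6% of all genes were. PSMD3 was the higher one, at 316 CPM in Zygote against 123 in Oocyte. The lower ones were PSMG3 (28.3 CPM in Zygote, 89.7 in Oocyte), PSMD5 (53.3 and 129.8), PSMF1 (24.9 and 52.4) and PSMB3 (59.3 and 121). From Zygote to 2C, 2 of 35 members were more than 2-fold higher in 2C (21.0% of all genes) and 5 were lower (11.5%). PSMD11 had 309 CPM in 2C against 148 in Zygote, and PSMD5 111.9 against 53.3. The largest lower ratio was that of PSMB7, with 24.3 CPM in 2C against 106.5 in Zygote, followed by PSMB4, with 32.7 against 100.5.

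At the 4C stage, 6 of 44 members rose against 2C and none fell, where 4.47% of all genes were called and 4.39% rose. The median log2 change was 0.42 over the members and 0.00 over all genes. The 6 were PSMB7, PSMB4 and PSMB1 of the beta ring, the ATPase PSMC6, and PSMD13 and PSMD7 of the lid of the regulatory particle. PSMB7 had 263 CPM in 4C of P1 and 51.0 in 4C of P13, against 18.3 in 2C of P1 and 36.8 in 2C of P13. PSMC6 had 87.0 and 40.3 CPM in 4C of P1 and P13, against 11.3 and 14.6 in 2C. PSMB4 had 262 and 62.7 CPM in 4C of P1 and P13, against 26.4 and 45.8 in 2C. For these genes both 4C sums lay above both 2C sums, but the P1 sum lay far above the P13 sum. By edgeR's quasi-likelihood test, adjusted by Benjamini-Hochberg, PSMB7 rose by 2.87 on the log2 scale (SE 0.48, adjusted p = 9.24e-05), PSMC6 by 2.56 (SE 0.40, adjusted p = 8.17e-05) and PSMB4 by 2.50 (SE 0.43, adjusted p = 0.000144).

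The other 3 calls between 4C and 2C had overlapping groups. PSMD13 had 244 CPM in 4C of P1 and 37.2 in 4C of P13, against 41.1 and 76.5 in 2C, so the order of the stages turned between the libraries. PSMD7, with 234 and 84.1 CPM in 4C against 45.8 and 109.5 in 2C, did the same. PSMB1 had 278 and 133 CPM in 4C of P1 and P13, against 80.8 and 137 in 2C. With library as a replicate block, 3 members were called (PSMB7, PSMC6 and PSMB4). Without P1 the count was 0 and without P13 it was 9. Within P1, 24 of the 40 members at or above 10 CPM were higher in 4C, against 45.4% of all genes at that level. Within P13, 19 of 41 were higher, against 39.4% of all genes. In some marker lists 4C lay nearer to Morula_E4 than to its neighbours. The trophectoderm list summed to 51.4 CPM in 2C, 330 in 4C, 35.7 in 8C and 365 in Morula_E4. For the hypoblast list these values were 42.4, 226, 93.9 and 374. The oocyte list kept the stage order, at 955, 788, 658 and 628. P1 also holds Morula_E4 cells. The part of this in the calls at 4C, 8C and the morula was not tested.

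At 8C, 5 of 44 members rose against 4C and 7 fell, where 11.2% of all genes were called, 4.06% higher and 7.11% lower. The members that rose were the alpha subunits PSMA2, PSMA4, PSMA5 and PSMA7 (4 of the 7 in the ring) and the beta subunit PSMB2. The members that fell were the inhibitor PSMF1, PSMB7, the ATPases PSMC6 and PSMC5 (2 of 6), and the non-ATPases PSMD13, PSMD7 and PSMD2 (3 of 11). The roles were not tested against each other. The 8C and 4C sums come from different libraries (P19 and P20 against P1 and P13), so stage and library cannot be told apart here.

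PSMB2 had 472 CPM in 8C of P19 and 593 in 8C of P20, against 235 in 4C of P1 and 276 in 4C of P13, without overlap. PSMA5 had 235 and 249.6 CPM in 8C of P19 and P20, against 178 and 94.3 in 4C of P1 and P13, also without overlap. Their log2 changes were 1.69 (SE 0.39, adjusted p = 0.0021) and 1.37 (SE 0.40, adjusted p = 0.0186) by edgeR's quasi-likelihood test, adjusted by Benjamini-Hochberg. PSMA4 (259 and 298 CPM in 8C, against 136 and 256 in 4C) also kept the groups apart. PSMA7 (303 and 321 CPM in 8C, against 177 and 308 in 4C) overlapped, and PSMA2 (407.2 and 488 in 8C, against 406.9 and 203 in 4C) nearly touched. The log2 changes of PSMA4, PSMA2 and PSMA7 were 1.17, 1.10 and 1.01.

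PSMF1, which can bind the core and block it, had 6.59 and 4.92 CPM in 8C of P19 and P20, against 67.4 and 15.3 in 4C of P1 and P13. PSMB7 had 30.5 and 16.2 CPM in 8C, against 263 and 51.0 in 4C. PSMC6 had 14.9 and 5.18 CPM in 8C, against 87.0 and 40.3 in 4C. In each of these genes both 8C sums lay below both 4C sums. They fell by 2.42, 2.37 and 2.28 on the log2 scale (SE 0.58, 0.46 and 0.39; adjusted p = 0.00281, 0.000244 and 4.89e-05, edgeR with Benjamini-Hochberg adjustment). PSMC5 had 26.7 and 16.3 CPM in 8C, against 101.8 and 85.1 in 4C, and fell by 1.61. PSMD13 fell by 1.75 over both libraries but changed sign without P1, to 0.44. It had 45.0 and 20.3 CPM in 8C of P19 and P20, against 37.2 in 4C of P13. Leaving out 1 library gave between 4 and 13 called members.

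Morula_E4 differed from 8C in 22 of 44 members, of which 16 rose and 6 fell, where 29.8% of all genes were called, 16.3% higher and 13.5% lower. Both comparisons of 8C use the same 8C sums, so a member that was low in these sums appears in both. The median log2 change was 0.28 over the members and 0 over all genes. By role, 4 of 6 ATPases rose (PSMC2, PSMC4, PSMC5 and PSMC6), both core chaperones (PSMG3 and PSMG4), 4 of 11 non-ATPases against 3 that fell, 2 of 5 beta subunits against 1 that fell, 1 of 7 alpha subunits, 2 of 4 activators and the inhibitor PSMF1.

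PSMC6 had 144 and 185 CPM in Morula_E4 of P1 and P2, against 14.9 and 5.18 in 8C of P19 and P20. PSMC5 had 235 and 286 CPM in Morula_E4, against 26.7 and 16.3 in 8C. PSMB7 had 298 and 305 CPM in Morula_E4, against 30.5 and 16.2 in 8C. In these genes every Morula_E4 sum was several times above every 8C sum. The log2 changes were 3.84 for PSMC6 (SE 0.41, adjusted p = 4.7e-10), 3.34 for PSMC5 (SE 0.32, adjusted p = 4.57e-11) and 3.44 for PSMB7 (SE 0.48, adjusted p = 1.72e-07) by edgeR's quasi-likelihood test, adjusted by Benjamini-Hochberg. PSMF1, with 72.8 and 87.0 CPM in Morula_E4 against 6.59 and 4.92 in 8C, rose by 3.51 (SE 0.60). Of the activators, PSME1 had 37.0 and 54.9 CPM in Morula_E4, against 11.9 and 9.64 in 8C, and PSME3, a nuclear activator, had 186 and 202, against 77.3 and 66.6. Both kept the groups apart, and their log2 changes were 1.79 and 1.13.

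Of the members that fell at the morula, PSMA8 had the largest change. It had 2.19 and 1.53 CPM in Morula_E4 of P1 and P2, against 118 and 116 in 8C of P19 and P20, and fell by 6.23 on the log2 scale (SE 1.62, adjusted p = 0.00273, edgeR with Benjamini-Hochberg adjustment). PSME3IP1 had 49.6 and 50.4 CPM in Morula_E4, against 172 and 235 in 8C. PSMD4, a ubiquitin receptor, had 32.9 and 35.9 CPM in Morula_E4, against 90.7 and 90.2 in 8C. PSMD12 had 142 and 147 CPM in Morula_E4, against 289 and 414 in 8C. None of these overlapped, and they fell by 2.38, 1.72 and 1.64.

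The split at the morula depends on the scaling. With DESeq2 size factors in place of TMM, which moves the median of all genes by -0.47, 13 members were higher and 17 lower, and the calls of PSMG3, PSME3 and PSMA1 were lost. DESeq2 itself called 14 higher and 17 lower. Without P19 the count was 10 higher and 12 lower. Morula_E4 and 4C share P1, and within it 27 of the 41 members at or above 10 CPM were higher in Morula_E4, against 48.6% of all genes at that level. The oocyte marker sum was 628 CPM in Morula_E4 against 658 in 8C and 788 in 4C; its part in these results was not tested.

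**Figure D3:**
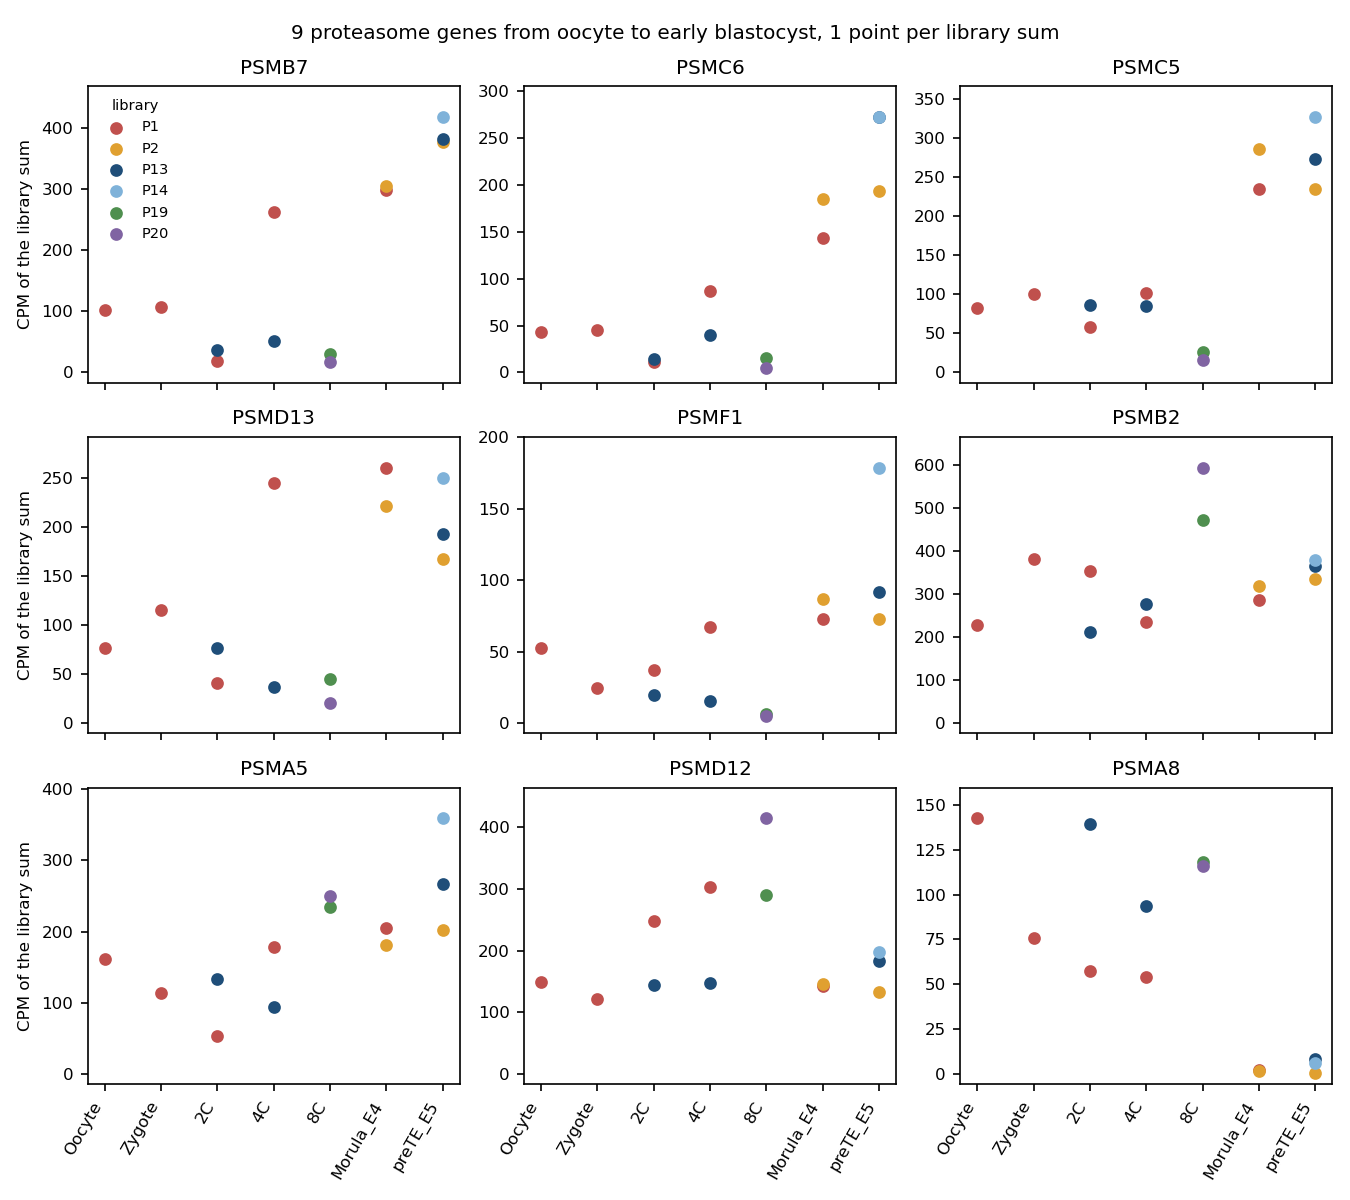
Level of 9 proteasome genes (y axis, CPM) in each library sum (points, coloured by library) from Oocyte to preTE_E5 (x axis). PSMB7, PSMC6, PSMC5 and PSMF1 are lower in both 8C points than in any 4C or Morula_E4 point, PSMB2 is higher there, and PSMA8 is near 0 from Morula_E4 on.

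After the morula, no member was called between preTE_E5 and Morula_E4 by edgeR, where 0.0518% of all genes were called, 6 had an unadjusted p under 0.05 and DESeq2 called 1. In the untested step to preICM_E5, from 1 library, 1 of 37 members was more than 2-fold higher than in Morula_E4 (7.08% of all genes at that level): PSME1, with 127 CPM in preICM_E5 against 40.2 in Morula_E4. PSMD3 was the only member more than 2-fold lower, with 29.0 CPM in preICM_E5 against 86.4 in Morula_E4 (14.9% of all genes).

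In TE_E6, 6 of 44 members rose against preTE_E5 and none fell, where 4.84% of all genes were called and 3.08% rose. The median log2 change was 0.54 over the members and -0.06 over all genes. The 6 were the inducible beta subunit PSMB10, both subunits of the interferon-inducible cap (PSME1 and PSME2), the core chaperone PSMG3 and the alpha subunits PSMA7 and PSMA3. PSMB10 had 13.2 and 22.7 CPM in TE_E6 of P14 and P15, against 4.37, 4.11 and 0.31 in preTE_E5 of P2, P13 and P14. PSME2 had 18.2 and 22.9 CPM in TE_E6, against 3.22, 6.26 and 5.57 in preTE_E5. Every TE_E6 sum lay above every preTE_E5 sum for both, and the log2 changes were 2.96 for PSMB10 (SE 0.56, adjusted p = 0.000516) and 2.46 for PSME2 (SE 0.45, adjusted p = 0.000403) by edgeR with Benjamini-Hochberg adjustment.

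PSME1 had 212 and 201 CPM in TE_E6 of P14 and P15, against 84.2, 102 and 151 in preTE_E5 of P2, P13 and P14, and rose by 1.31. PSMG3 had 173 and 185 CPM in TE_E6, against 51.6, 70.0 and 123 in preTE_E5, and rose by 1.57. PSMA7 had 363 and 467 CPM in TE_E6, against 271, 234 and 236 in preTE_E5, and rose by 1.17. PSMA3 had 388 and 449.5 CPM in TE_E6, against 261, 217 and 334 in preTE_E5, and rose by 1.05. The groups did not overlap for any of them. Leaving out 1 library left 2 to 3 calls, and PSMB10 and PSME2 were the ones kept under every alternative. Within P14, the library that holds both groups, the summed level was 9266 CPM in TE_E6 and 9328 in preTE_E5. There 18 of 40 members at or above 10 CPM were higher in TE_E6, against 41.0% of all genes, and 22 were lower, against 59.0%; the 6 called members were each higher in TE_E6.

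The inner cell mass of the same libraries was not tested against TE_E6. ICM_E6 of P14 and P15 had 254 and 237 CPM of PSME1, 43.1 and 28.3 of PSME2 and 13.004 and 17.1 of PSMB10, against 127, 6.16 and 1.18 in the single preICM_E5 sum. PSMG3 was the member more than 2-fold higher in ICM_E6, with 171 CPM against 65.6 in preICM_E5, where 8.93% of all genes were. PSME4 was the member more than 2-fold lower, with 43.4 CPM against 93.1, where 11.6% of all genes were. With 1 preICM_E5 sum there was no test. Against ICM_E6, edgeR called 0 members in Epiblast_E7 (1.84% of all genes; 3 at an unadjusted p under 0.05; 1 by DESeq2) and 1 in Hypoblast_E7 (1.01% of all genes; 0.759% higher).

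That 1 member was PSMB10, which had 86.7 and 83.4 CPM in Hypoblast_E7 of P8 and P9, against 13.004 and 17.1 in ICM_E6 of P14 and P15. The groups lay far apart, and PSMB10 rose by 2.48 on the log2 scale (SE 0.60, adjusted p = 0.0218, edgeR with Benjamini-Hochberg adjustment). The call was lost without P14, P15 or P8. In Epiblast_E7, PSMB10 had 21.8 and 36.8 CPM in P8 and P9, between the ICM_E6 and the Hypoblast_E7 levels. The blood and immune marker genes, whose cells hold much of this subunit, summed to 4.88 CPM in Hypoblast_E7, with 5 of 7 genes detected and PTPRC and TYROBP at 0, against 42.2 CPM in ICM_E6, with 3 of 7 detected and most of it AIF1. Its part in these values was not tested.

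Hypoblast and epiblast of the same library and day could be compared in 6 pairs: P8 and P9 at E7, P4 and P5 at E8, P17 at E9 and P16 at E10. In this fit 4 of 42 members were called, all lower in Hypoblast, where 11.2% of all genes were lower and 22.5% were called in either direction. The median log2 difference was -0.12 over the members and 0.03 over all genes. The 4 were PSMA8, PSME2, PSME3 and the alpha subunit PSMA6. In all 6 pairs 6 of the 42 members at or above 10 CPM were lower in Hypoblast (12.8% of all genes at that level) and 0 were higher (16.3% of all genes). The 6 were PSMA2, PSMA6, PSMA8, PSMB4, PSMD2 and PSME3.

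PSMA8 was low in both lineages at E7 and higher in epiblast from E8 on. In the 6 Hypoblast sums it had a lowest level of 0.158 CPM, a median of 1.52 and a highest of 2.07, against 1.65, 28.5 and 70.9 CPM in the 6 Epiblast sums. The pairs at E7 had 1.24 and 1.39 CPM in Hypoblast, against 1.65 and 4.06 in Epiblast, and those from E8 on had 0.158 to 2.07 in Hypoblast, against 17.97 to 70.9 in Epiblast. The groups overlapped only through the E7 epiblast. The log2 difference of PSMA8 was -3.90 (SE 0.78, adjusted p = 0.00378, edgeR with Benjamini-Hochberg adjustment).

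PSME3 had 158 CPM in the lowest Hypoblast sum, a median of 209 and 258 in the highest, against 249, 334 and 477 in Epiblast. The ranges overlapped at their ends, but Hypoblast was the lower of every pair, and the log2 difference was -0.69 (SE 0.13, adjusted p = 0.00213, edgeR with Benjamini-Hochberg adjustment). PSMA6 ran between 227 and 370.1 CPM in Hypoblast with a median of 327, against 370.4 to 424 with a median of 405 in Epiblast. The groups just did not overlap, and the log2 difference was -0.34 (SE 0.11, adjusted p = 0.0474), the smallest of the 4. With at least 10 cells in every sum, which leaves 3 pairs, edgeR called 0 members.

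PSME2 and PSMB10, both interferon-inducible in other tissues, took different courses in the 2 lineages. PSME2 had 56.4 and 58.7 CPM in Hypoblast of P8 and P9 at E7, against 52.2 and 44.9 in Epiblast. At E8 it had 17.3 and 17.4 CPM in Hypoblast of P4 and P5, against 73.5 and 137 in Epiblast. At E9 and E10 it had 17.1 and 29.5 CPM in Hypoblast of P17 and P16, against 166 and 154 in Epiblast. Hypoblast was the higher of both E7 pairs and the lower of the 4 later ones, and over the 6 pairs the log2 difference was -1.75 (SE 0.47, adjusted p = 0.0198, edgeR with Benjamini-Hochberg adjustment).

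PSMB10 had 86.7 and 83.4 CPM in Hypoblast at E7, against 21.8 and 36.8 in Epiblast. At E8 it had 113 and 111 CPM in Hypoblast of P4 and P5, against 26.7 and 51.7 in Epiblast, and the unpaired Hypoblast sum of P3 had 161. At E9 and E10 the order turned, with 38.4 and 53.4 CPM in Hypoblast of P17 and P16, against 85.3 and 141 in Epiblast. Over the 6 pairs the log2 difference of 0.64 was not called (adjusted p = 0.364, edgeR with Benjamini-Hochberg adjustment). PSME1, the partner of PSME2 in the same cap, had a median of 99.6 CPM in the 6 Hypoblast sums, with a range of 72.2 to 175, against a median of 145 and a range of 64.8 to 174 in Epiblast. Those ranges overlap throughout.

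**Figure D4:**
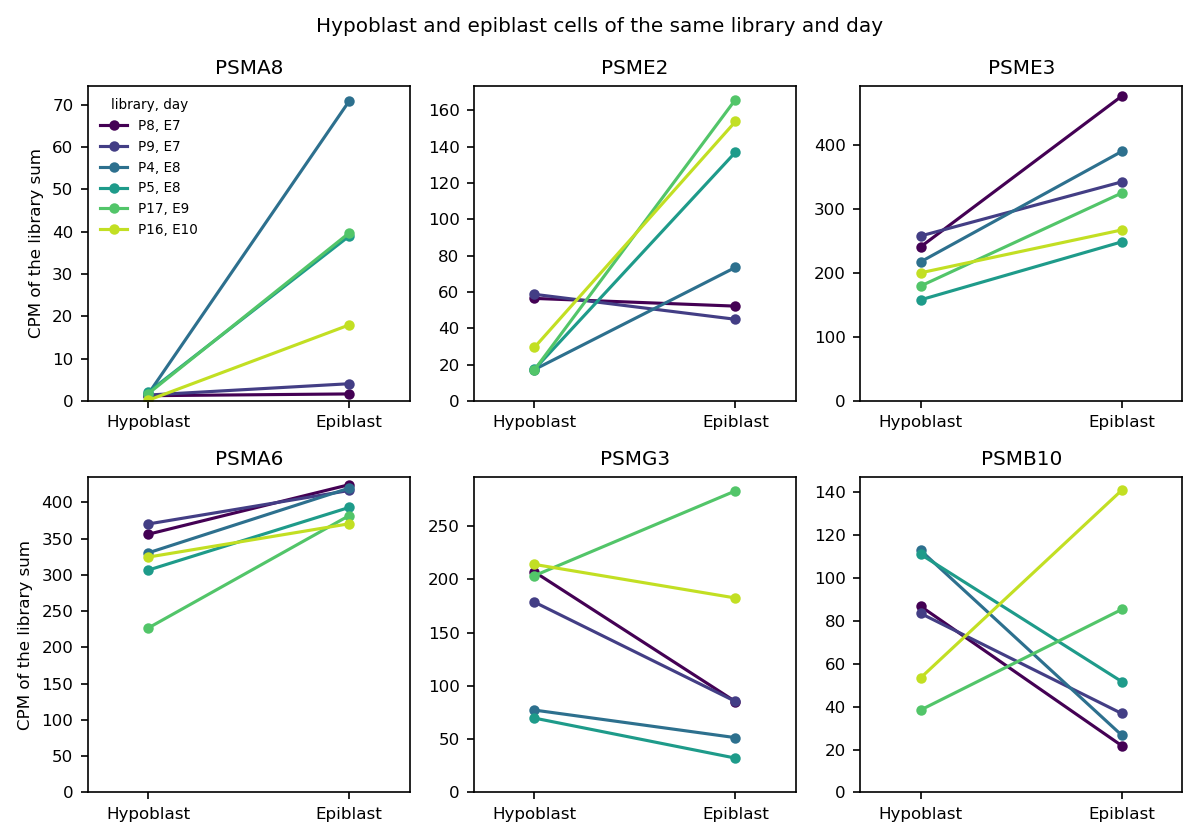
Level of 6 proteasome genes (y axis, CPM) in Hypoblast and Epiblast sums (x axis) of the same library and day (joined points, coloured by library and day). PSME3 and PSMA6 are lower in Hypoblast in every pair, PSME2 and PSMA8 are close at E7 and lower in Hypoblast from E8 on, and PSMB10 is higher in Hypoblast at E7 and E8 and lower at E9 and E10.

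Day against day within these lineages, edgeR called 0 members between Epiblast_E8 and Epiblast_E7 (0.604% of all genes; 4 at an unadjusted p under 0.05; 0 by DESeq2). It called 0 between Hypoblast_E8 and Hypoblast_E7 (0.237% of all genes; 3 at an unadjusted p under 0.05; 1 by DESeq2). In untested steps, 4 of 41 members were more than 2-fold higher in Epiblast_E9 than in Epiblast_E8 (16.7% of all genes at that level). PSMG3 had the largest ratio, with 283 CPM in Epiblast_E9 against 40.1 in Epiblast_E8, followed by PSME3IP1 (133 against 50.2), PSMC3IP (229 against 106) and PSMB10 (85.3 against 41.4). PSMG3 was also higher in Hypoblast_E9, with 203 CPM against 78.9 in Hypoblast_E8, as was PSME4, with 85.4 against 40.1 (17.3% of all genes). PSMB10 was lower there, with 38.4 against 120 (2.79% of all genes). Both E9 groups come from library P17 alone, so the 2 lineages are not independent here. Day and library cannot be told apart in these steps.

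PSMA8 could be followed cell by cell. At 8C, 15 of 15 cells of P19 and 65 of 65 of P20 had a count of it, and in Oocyte and Zygote it had 142 and 75.6 CPM. In preTE_E5, 13 of 23 cells of P13, 4 of 8 of P14 and 3 of 29 of P2 had a count, at 8.22, 6.19 and 0.69 CPM. In ICM_E6, 1 of 18 and 0 of 14 cells had a count, and in Epiblast_E7 2 of 13 and 2 of 22. In Epiblast_E8, 6 of 7 and 7 of 8 cells had one. In Epiblast_E10 the share was 77.1% of 48 cells in P15 (95% exact binomial interval 62.7% to 88.0%) and 44.9% of 49 cells in P16 (30.7% to 59.8%). In 8 of the 9 hypoblast sums the share ran between 5.71% and 21.1% of cells, and in Hypoblast_E8 of P3 it was 0 of 24. Median depth was 681676 and 513156 counts per cell in those Epiblast_E10 sums and 321676 in Hypoblast_E10 of P16. In Ectoderm_E11 1 of 11 and 6 of 91 cells had a count. PSMA8 lies on chromosome 6, from 110799065 to 110836937, and is a close paralog of PSMA7; the sources used here do not give how reads shared by the pair were counted. Intervals cover counting error only.

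The 3 inducible beta subunits differed from each other. PSMB10 lies on chromosome 6, from 28544910 to 28547609. PSMB8 and PSMB9 lie next to the peptide transporter genes on chromosome 7, with TAP2 from 25045085 to 25056915, PSMB8 from 25058456 to 25061666, TAP1 from 25062772 to 25071989 and PSMB9 from 25072133 to 25077508 (RefSeq, Sscrofa11.1). PSMB10 averaged 6.27 CPM over the 5 early groups and 76.5 over the 33 later ones and was present in every lineage after E6. Its highest early level was 21.0 CPM in Oocyte, where 64 of 67 counts came from 1 of 4 cells. PSMB8 and PSMB9 stayed near 0 in most sums.

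PSMB8 reached its highest level in Mesdoderm_E11 of P6, at 27.8 CPM, with a count in 23 of 33 cells. Ectoderm_E11 of P6 had 16.3 CPM of PSMB8, but 31 of its 38 counts came from 1 cell, whereas in Ectoderm_E11 of P7, at 9.55 CPM, 47 of 91 cells had a count. Ectoderm_E13 of P19 had 10.1 CPM of PSMB8, in 14 of 44 cells. PSMB9 was highest in Ectoderm_E12 of P10, at 30.3 CPM, where 223 of 238 counts came from 1 cell, and in Defi_Endoderm_E14 of P11 40 of 41 counts came from 1 cell. TE_E10 had 6.92 and 11.9 CPM of PSMB9. Neither gene was tested in any lineage fit except PSMB9 between mesoderm and ectoderm, since both were below the count filter there.

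The cap genes PSME1 and PSME2 are neighbours on chromosome 7, PSME2 from 75154570 to 75157871 and PSME1 from 75161830 to 75164531. PSME1 averaged 18.96 CPM over the 5 early groups and 145 over the 33 later ones, and PSME2 16.02 and 76.8. PSME2 had 92.1 to 219 CPM in the Ectoderm sums and 154 to 166 in the Epiblast sums of E9 and E10. In Endoderm it had 18.04 CPM at E11 and 50.9 at E12, in Defi_Endoderm_E13 234 in P18 and 77.1 in P19, and in TE it stayed at or below 54.2 CPM in every sum.

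**Figure D5:**
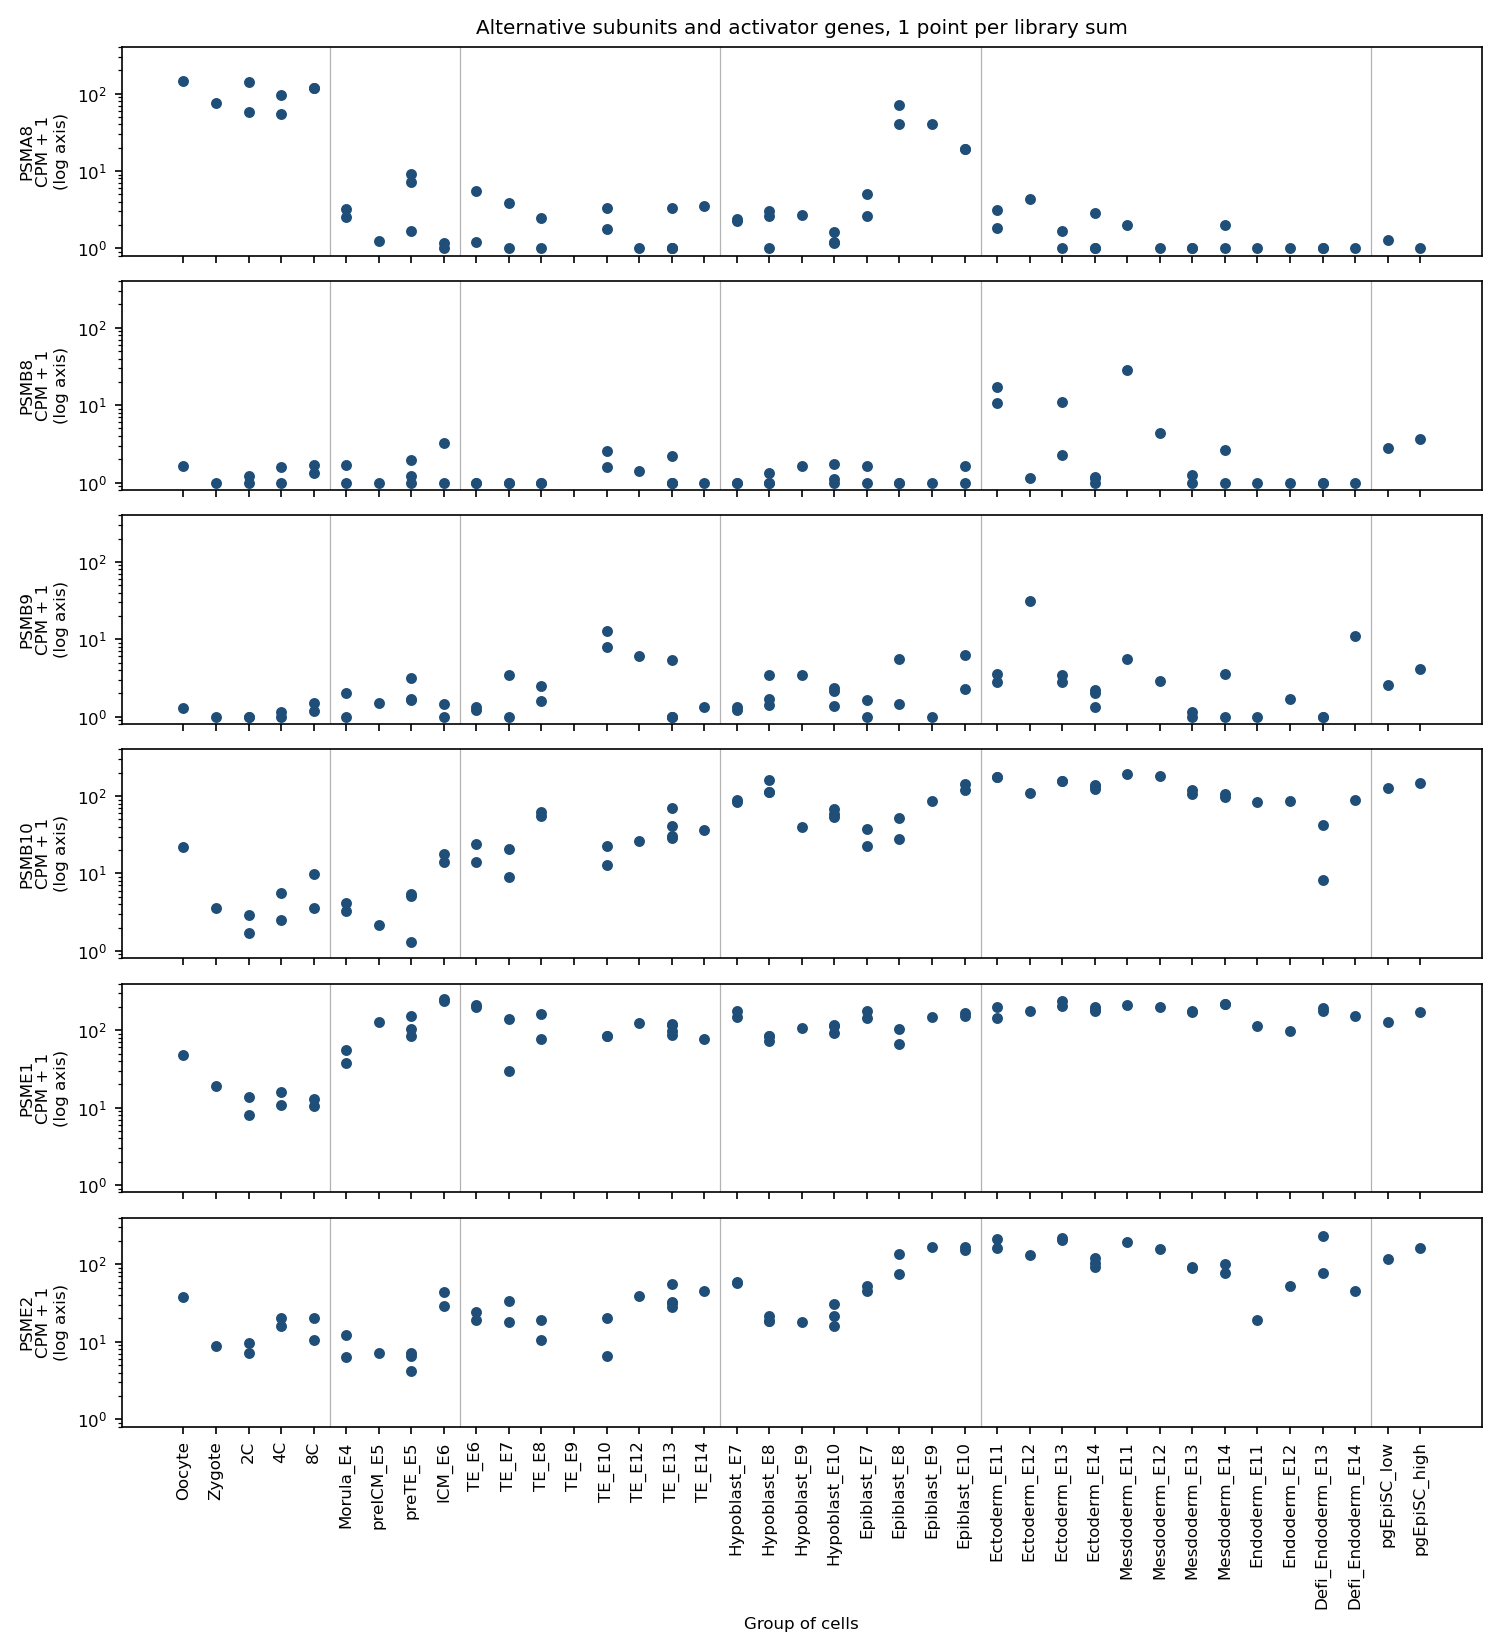
Levels of PSMA8, PSMB8, PSMB9, PSMB10, PSME1 and PSME2 (y axes, CPM + 1 on a log scale) in every sum (points) by group (x axis). PSMA8 is high up to 8C and again in Epiblast from E8 to E10, PSMB10 and PSME2 come up from E6 on, and PSMB8 and PSMB9 are near 0 in most sums.

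In the trophectoderm the pooled summed level of the members was 9243 CPM in TE_E6, 8663 in TE_E7, 8896 in TE_E8, 7748 in TE_E10, 8500.0 in TE_E12, 8254 in TE_E13 and 6517 in TE_E14. TE_E7 differed from TE_E6 in 1 of 44 members, where 0.755% of all genes were called and 0.38% fell. PSMG4, a core chaperone, had 66.9 and 14.2 CPM in TE_E7 of P8 and P9, against 132 and 141 in TE_E6 of P14 and P15. Both TE_E7 sums were lower, and PSMG4 fell by 1.87 (SE 0.47, adjusted p = 0.0387, edgeR with Benjamini-Hochberg adjustment). The call was lost without P9 (-1.26), P14 or P15. Of the 41 members at or above 10 CPM, 36 were lower in TE_E7 of P9 than in TE_E7 of P8, against 47.5% of all genes, and the median log2 ratio was -1.21 over the members and 0.11 over all genes. For example, PSMA6 had 78.9 CPM in P9 and 375 in P8. Without P8, which leaves the P9 sum alone for TE_E7, 23 members were called.

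Later trophectoderm steps gave no calls by edgeR. It called 0 members between TE_E8 and TE_E7 (0.0302% of all genes; 3 at an unadjusted p under 0.05; 2 by DESeq2) and 0 between TE_E10 and TE_E8 (0.134% of all genes; 1 at an unadjusted p under 0.05; 0 by DESeq2). The first of these stayed at 0 without P9 (median log2 change -0.16 over the members, against 0.36 with it) and became 16 without P8. In the untested step to TE_E12 the one member more than 2-fold higher was PSME3IP1, with 65.9 CPM in TE_E12 against 28.7 in TE_E10 (13.6% of all genes at that level). In the step to TE_E14 the one member more than 2-fold lower was PSMA1, with 151 CPM in TE_E14 against 309 in TE_E13 (9.2% of all genes).

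TE of E12 to E14, the days of conceptus elongation, was set against TE of E6 to E8 (6 sums each). The fit weighted the days equally, so the lone sums of TE_E12 and TE_E14 each counted as much as all TE_E13 sums together. The medians and ranges given here are over sums, without these weights. The summed level of the 44 members had a lowest value of 6543 CPM, a median of 7883 and a highest of 9600 (9599.6) in late TE, against 4722, 9160.3 and 9458 in early TE. The ranges overlap, and TE_E7 of P9 was the lowest of these TE sums; without it early TE had a lowest value of 8861 CPM and a median of 9189. Of the 44 members 34 had a negative log2 change, with a median of -0.31 over the members and 0.06 over all genes. By edgeR 1 member was called, where 14.4% of all genes were and 9.15% rose. This was PSME2, with a lowest level of 27.4 CPM, a median of 35.1 and a highest of 54.2 in late TE, against 9.55, 18.3 and 32.4 in early TE. The groups overlapped through TE_E7 of P9 alone, and PSME2 rose by 0.93 (SE 0.31, adjusted p = 0.0372, edgeR with Benjamini-Hochberg adjustment).

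The PSME2 call did not hold across alternatives, while calls of lower members appeared. With at least 10 cells per sum, 16 members were called and all fell, where 14.7% of all genes were called (median log2 change -0.73 over the members). Without P9 there were 12, all of which fell, where 16.4% of all genes were called (median -0.51). Leaving out P9 removes TE_E7 of P9 and also TE_E13 of P9, the highest late TE sum at 9600 CPM. Without P12, P14, P15 or P4 the count was 0. Pig trophectoderm is known to secrete interferon gamma at elongation, and IFNG had a lowest level of 618 CPM, a median of 2043 and a highest of 2744 in late TE, against 0, 0.664 and 107 in early TE. A list of 13 interferon and antigen-presentation genes, of which 12 were measured, was read beside the members, and among them IFNG and B2M rose in late TE, with log2 changes of 9.47 and 4.15. PSMB10 had 25.1 to 69.9 CPM in late TE with a median of 32.6, against 8.09 to 60.5 with a median of 21.4 in early TE, and was not called. The macrophage marker AIF1 was also higher in late TE (191 to 254 CPM pooled by day, against 1.4 to 36 in TE_E6 to TE_E8), while PTPRC, CD53 and TYROBP had between 0 and 6.67. The whole list of 7 blood and immune markers summed to 199.95 to 257 CPM in TE_E12 to TE_E14 (4 or 5 genes detected), against 2.25 to 36.8 in TE_E6 to TE_E8 (2 or 3 detected), and its part in these values was not tested.

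TE and Epiblast of the same library and day gave 3 pairs (P8 and P9 at E7, P4 at E8). By edgeR 0 of 41 members were called, where 10.4% of all genes were, 3 had an unadjusted p under 0.05 and DESeq2 called 0. The median log2 difference was -0.54 over the members and -0.12 over all genes. In all 3 pairs 22 of 42 members at or above 10 CPM were lower in TE, against 24.6% of all genes, and 1 was higher, against 21.4%. That 1 was PSME4, with 38.8, 146 and 55.5 CPM in TE of P8, P9 and P4, against 15.5, 22.5 and 54.6 in Epiblast. The summed level was 9458, 4722 and 8861 CPM in TE of P8, P9 and P4, against 10153 or more in every Epiblast sum. Without P9, 1 member was called lower, PSME2, where 9% of all genes were called, and the median log2 difference was -0.12 over the members. In both remaining pairs 23 of 42 members were lower in TE, against 35% of all genes, and 6 were higher, against 32.3%.

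Few members were called among the derivatives of the epiblast. By edgeR 0 members were called between Ectoderm_E11 and Epiblast_E10 (0.168% of all genes; 5 at an unadjusted p under 0.05; 0 by DESeq2). It called 0 between Ectoderm_E14 and Ectoderm_E13, where the median log2 change was -0.34 over the members (0.267% of all genes; 2 at an unadjusted p under 0.05; 0 by DESeq2). It called 0 between Mesdoderm_E14 and Mesdoderm_E13 (0% of all genes; 4 at an unadjusted p under 0.05; 0 by DESeq2).

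Mesoderm and ectoderm of the same library and day gave 6 pairs. By edgeR 0 of 42 members were called, where 3.62% of all genes were, 0 had an unadjusted p under 0.05 and DESeq2 called 0. The summed level ran between 8390.1 and 11568 CPM in Mesdoderm with a median of 10506, against 9801 to 12023 with a median of 11388.5 in Ectoderm. In all 6 pairs 4 of 41 members were lower in Mesdoderm (7.91% of all genes) and 0 were higher (5.32%). These were the alpha subunit PSMA5 and the non-ATPases PSMD6, PSMD7 and PSMD8. PSMA5 had 484 CPM in Mesdoderm_E11 of P6, against 506 in Ectoderm_E11 of the same library, and 211 in Mesdoderm_E14 of P12, against 306 in Ectoderm_E14.

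In the untested steps at gastrulation few members moved more than 2-fold. The core chaperone PSMG3 was lower in Mesdoderm_E11, with 58.9 CPM against 216 in Epiblast_E10 (1 of 40 members; 14.5% of all genes at that level). PSMD4 was higher in Mesdoderm_E12, with 93.1 CPM against 45.7 in Mesdoderm_E11 (1 of 40; 4.58%), and PSME3IP1 in Mesdoderm_E13, with 115 against 51.1 in Mesdoderm_E12 (1 of 40; 13.2%). In Defi_Endoderm_E14, PSMB10 was higher, with 87.8 CPM against 31.7 in Defi_Endoderm_E13 (1 of 39; 18.1%), and PSME2 lower, with 42.4 against 120.2 (1 of 39; 6.52%). In Endoderm_E12, PSME2 was higher, with 50.9 CPM against 18.04 in Endoderm_E11 (1 of 40; 11.2%). These steps have only 1 sum on at least 1 side.

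PSMB10 and PSME2 were high in both germ layers. PSMB10 had a lowest level of 96.1 CPM, a median of 112 and a highest of 189 in the 6 Mesdoderm sums, against 109.9, 147 and 173 in Ectoderm. PSME2 had 76.8, 95.7 and 194 CPM in Mesdoderm, against 92.1, 146 and 219 in Ectoderm. The ranges of the germ layers overlap for both genes. The fibroblast marker sum reached 2582 CPM in Mesdoderm_E14, and its part in these values was not tested.

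Definitive endoderm and ectoderm gave 3 pairs (P18 and P19 at E13, P11 at E14). By edgeR 0 of 41 members were called, where 1.02% of all genes were, 6 had an unadjusted p under 0.05 and DESeq2 called 1. In all 3 pairs 21 of 41 members were lower in Defi_Endoderm (21.6% of all genes) and 0 were higher (12.3%). The median log2 difference was -0.35 over these members and -0.23 over all genes at or above 10 CPM. PSMB10 had 7.20, 40.9 and 88.9 CPM in Defi_Endoderm of P18, P19 and P11, against 155, 156 and 122 in Ectoderm. All its Defi_Endoderm sums lay below all its Ectoderm sums, and the log2 difference of -1.90 (SE 0.49) missed the threshold (adjusted p = 0.0516, edgeR with Benjamini-Hochberg adjustment). The summed level was 8581, 11275 and 8093 CPM in Defi_Endoderm of these libraries, and the P18 sum rests on 5 cells.

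Against Epiblast_E10, Defi_Endoderm_E13 had 1 of 44 members called, where 2.88% of all genes were and 1.14% fell. The same Defi_Endoderm_E13 sums enter the comparison with Ectoderm. PSMB10 had 7.20 and 40.9 CPM in Defi_Endoderm_E13 of P18 and P19, against 118 and 141 in Epiblast_E10 of P15 and P16. The groups did not overlap, and PSMB10 fell by 2.05 on the log2 scale (SE 0.60, adjusted p = 0.0478, edgeR with Benjamini-Hochberg adjustment). The call was lost without P15, P16 or P18, while without P19 there were 4 calls. PSMA8 was at 0 in both Defi_Endoderm_E13 sums, against 18.4 and 17.97 CPM in Epiblast_E10, and was not called (adjusted p = 0.0916, edgeR with Benjamini-Hochberg adjustment). Of the interferon list 2 of 12 genes rose, IFNGR1 by 3.70 and IFNG by 6.40.

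Set against their tissue of origin, Epiblast_E10, the pgEpiSC lines differed in 1 called member. This was 1 of 44 members, where 0.397% of all genes were called and 0.345% fell, and the median log2 change over the members was 0.22. The called member was PSMA8, which had 0.297 CPM in pgEpiSC_low and 0 in pgEpiSC_high, against 18.4 and 17.97 in Epiblast_E10 of P15 and P16. In pgEpiSC_low 1 of 93 cells had counts, 4 in all, and in pgEpiSC_high 0 of 96 cells had one (upper limit 3.77% by the exact binomial interval, which limits cells with a count). Median depth was 136321 counts per cell in pgEpiSC_low and 169411 in pgEpiSC_high, against 681676 and 513156 in Epiblast_E10. The groups did not overlap, and PSMA8 was lower at an adjusted p of 0.0335 by edgeR with Benjamini-Hochberg adjustment. The fitted change of -7.79 depends on the prior count. In this fit pgEpiSC_low and pgEpiSC_high were separate groups with 1 sum each, so their own spread does not enter the adjusted p. Their sums are assumed to vary like those of the other groups, and the labels do not show them to be replicates. The call was lost when any 1 of the 4 libraries was left out, which leaves 1 sum on a side.

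The inducible subunit PSMB10 and the cap genes had values among those of the epiblast. PSMB10 had 127 CPM in pgEpiSC_low and 148 in pgEpiSC_high, against 118 and 141 in Epiblast_E10 of P15 and P16. PSME2 had 117 and 159.5 CPM in pgEpiSC_low and pgEpiSC_high, against 166 and 154 in Epiblast_E10. PSME1 had 128 and 173 CPM in pgEpiSC_low and pgEpiSC_high, against 165 and 151 in Epiblast_E10. These values interleave, and none of the 3 was called. Between the 2 pgEpiSC libraries, 37 of 44 members had a log2 ratio of pgEpiSC_high to pgEpiSC_low above 0. The median was 0.23 over the members and 0.12 over all genes at or above 50 CPM, and with 1 library each there is no test.

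Past a log2 ratio of 0.5, 4 of 40 members at or above 50 CPM were higher in pgEpiSC_high (10.8% of all genes at that level) and 1 was lower (8.39%). The higher ones were PSMD10, a chaperone of the regulatory particle (119 CPM in pgEpiSC_high, 75.1 in pgEpiSC_low), PSMF1 (79.8 and 50.8), PSMC3IP (133 and 85.9) and PSME3IP1 (109.9 and 77.0). PSME4 was lower, with 37.6 CPM in pgEpiSC_high against 55.7 in pgEpiSC_low.

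Genes that work with the proteasome were read from a list of 28 partners, of which 25 were found. At 4C, 2 of the 25 rose against 2C (4.39% of all genes) and none fell: the segregase VCP (log2 change 1.97) and POMP, which assembles the core (2.30). At 8C, 2 rose and 3 fell against 4C (4.06% and 7.11% of all genes), with AKIRIN2, which carries the proteasome into the nucleus, at 2.003 and UBB, a ubiquitin gene, at 1.45, against the proteasome-bound ubiquitin ligase UBE3C at -3.36, the VCP cofactor NPLOC4 at -2.72 and VCP at -2.13. In Morula_E4, 10 rose and 5 fell against 8C (16.3% and 13.5% of all genes). UBE3C (6.33), the shuttle factor UBQLN4 (5.15) and NPLOC4 (4.14) rose most, and AKIRIN2 (-2.69), NGLY1 (-1.89) and ECPAS (-1.65) fell most. UBE3C, NPLOC4 and VCP were thus called in opposite directions in 2 steps that share the 8C sums.

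NFE2L1, the transcription factor that induces proteasome genes when activity falls, rose in TE_E7 against TE_E6 by 2.30 (adjusted p = 0.00735) and, against the shared ICM_E6 sums, in Epiblast_E7 by 2.51 (adjusted p = 0.00233) and in Hypoblast_E7 by 1.98 (adjusted p = 0.0177; edgeR with Benjamini-Hochberg adjustment). In the same 3 comparisons 0, 0 and 1 members rose, where 0.755%, 1.84% and 1.01% of all genes were called in either direction. A link between NFE2L1 and the members was not tested. Between Hypoblast and Epiblast, NFE2L2 (1.56) and ZFAND2A (1.09) were higher and USP14, a deubiquitinase of the regulatory particle, was lower (-0.42). In late TE against early TE, where 14.4% of all genes were called, UBA1, the ubiquitin-activating enzyme, rose by 0.97, while PAAF1 (-1.16), UFD1 (-0.74) and UBB (-0.69) fell. Between TE and Epiblast, where 10.4% of all genes were called, ECPAS (2.13) and NFE2L2 (1.61) were higher in TE. The 5-cell sum TE_E7 of P9 enters each of these TE comparisons, and the partner changes are not given without it.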

How the data were processed

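Single-cell libraries were aligned with STAR 2.7.1a to Sscrofa11.1 and counted with UMI-tools and featureCounts 1.6.4, per the submitters' processing notes; the annotation and strand setting are not given in the sources used here. The deposited tables hold counts per gene and cell, and, per group, the authors' mean and SD of log2 values, whose numbers match log2(CPM/10 + 1) of those counts. A group average shows no library spread, so counts were used for all tests. The 92 spike-ins (1.80% of counts) stayed out of library sizes.

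Members and gene lists were chosen with earlier results of these data known. Each cell's group was recovered by least squares of the deposited group means on the cells: every cell weighed at least 0.999 times 1/n in its own group, and 93.0% or more of the means and 99.8% or more of the SDs of a group were matched within 0.001. Counts were added per group and library (minimum 5 cells per sum, but 2 in Zygote, 2C or 4C and 1 in Oocyte). TE_E9 has no sum, so TE_E10 was set against TE_E8. Day-to-day steps, late TE and pgEpiSC came from 1 edgeR 4.0.16 fit of 67 sums and 23182 genes (filterByExpr, TMM, quasi-likelihood test, Benjamini-Hochberg adjustment at 0.05; R 4.3.3). The lineage comparisons within a day were fitted with a block of library and day. The fits were tested on simulated data. SEs are the log2 change over the square root of F.

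Named in the text were, per comparison and direction, the 4 called members with the largest change, every called inducible subunit or activator, and PSMA8, or all where 6 or fewer were called. Members lower or higher in every pair, PSMA7, PSMC5, PSMD7 and PSMD2 at 8C, PSMC2, PSMC4, PSMG3, PSMG4 and PSMA1 at the morula, PSMB10 against Ectoderm and the values of PSME1, PSME2, PSMB10, PSMB8 and PSMB9 by group were chosen after their values were seen. The shared libraries P1 and P13 pair 2C with 4C, as the cell names show. Alternatives were DESeq2 (1.42.0), its size factors, no filter, at least 10 cells per sum, at least 6000 genes per cell (114 cells have fewer), the block, and each library left out. Shares carry exact 95% binomial intervals. Levels of different genes were not compared, since gene lengths were not used. Some results of the interferon list are not reported here.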

Additional observations from a re-analysis of the deposited data

Results flagged for a closer look

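In TE_E13, PSMC3 of P9 stood apart at 279.7 CPM, where the other 3 sums had 158 to 169. PSMD3 of P10 stood apart in the same group at 102.9 CPM, where the others had 50.03 to 55.9. TE_E13 was the only group with 4 or more sums. The check was made for each member at both ends, so chance can mark some members, and how many was not tested.

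For 3 members the hypoblast lay on opposite sides of the epiblast in both library pairs of E8 and in both pairs of E7, and the difference between the days was not tested. The mean log2 ratio of hypoblast to epiblast at E8 minus that at E7 was -2.71 for PSME2, -1.67 for PSME4 and 1.01 for PSMD3.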

How the results depend on the processing

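Counts of called members moved by setting as follows. With DESeq2 size factors they were 3 for 4C against 2C and 1 for Defi_Endoderm against Ectoderm. With library as a replicate block 4C against 2C had 3, and without the block of library and day Hypoblast against Epiblast had 3 and the other lineage comparisons 0. With no filter TE_E8 against TE_E7, Epiblast_E8 against Epiblast_E7 and Defi_Endoderm against Ectoderm had 1 each, and Defi_Endoderm_E13 against Epiblast_E10 had 2. With at least 10 cells per sum the counts were 20 for 8C against 4C, 16 for late against early TE, 2 for pgEpiSC against Epiblast_E10, 1 for Epiblast_E7 against ICM_E6, 1 for Hypoblast_E8 against Hypoblast_E7 and 0 for Hypoblast against Epiblast. With cells of at least 6000 genes they were 19 for 8C against 4C, 15 for late against early TE and 1 for preTE_E5 against Morula_E4. DESeq2 called 21 for 8C against 4C, 4 for Defi_Endoderm_E13 against Epiblast_E10, 6 for late against early TE, 3 for TE_E7 against TE_E6, 2 each for TE_E8 against TE_E7 and pgEpiSC against Epiblast_E10, and 1 each for preTE_E5 against Morula_E4, Epiblast_E7 against ICM_E6, Hypoblast_E8 against Hypoblast_E7 and Defi_Endoderm against Ectoderm. The cause was not tested.

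Leaving out 1 library gave 0 to 9 called members for 4C against 2C, 4 to 13 for 8C against 4C, 14 to 22 for Morula_E4 against 8C, 2 to 3 for TE_E6 against preTE_E5, 0 to 23 for TE_E7 against TE_E6, 0 to 16 for TE_E8 against TE_E7, 0 to 1 for Hypoblast_E7 against ICM_E6, TE against Epiblast and Defi_Endoderm against Ectoderm, 0 to 4 for Defi_Endoderm_E13 against Epiblast_E10, 0 to 12 for late against early TE and 2 to 4 for Hypoblast against Epiblast. It gave 0 in each case for pgEpiSC against Epiblast_E10 and the other comparisons. A lone sum left on a side is assumed to vary like the other groups, as are the pgEpiSC sums with every library kept. For 4C against 2C, PSMD13 ran from -0.93 without P1 to 2.64 without P13 and PSMD7 from -0.27 to 2.42, and for 8C against 4C PSMD13 from 0.44 without P1 to -2.40 without P13. At least 10 cells per sum, or 6000 genes per cell, left too few sums for some comparisons, most of them in TE, and those have no value.

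Over all called members, named or not, 87 values with 1 library left out and 28 under another setting were no longer called. Another 3, with 1 library left out, changed sign. The call and direction were kept by 132 values with 1 library left out and 231 under another setting. Small sums limit several groups: Oocyte, Zygote, 2C and 4C rest on 4 to 23 cells, TE_E12 on 9 and Epiblast_E9 on 7.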
